A study of Mus musculus with 14 samples.

Results

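C1qa, C1qb, C1qc, Tyrobp, Fcer1g and Ptprc are 6 genes of leukocytes, and the histone marks H3K9cr (crotonylation of lysine 9 of histone H3) and H3K9ac (acetylation of the same residue) were followed over them in mouse kidney. They were picked because promoters of leukocyte genes appeared in the peak lists after unilateral ureteric obstruction (UUO), so the contrast between UUO and control kidneys chose them and is described here without a test. They are 6 of 21887 protein-coding genes of the RefSeq annotation of GRCm38.p6. Because C1qa, C1qb and C1qc lie side by side, the 6 genes fill 4 loci.

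ChIP-seq was performed on whole kidneys of 4 kinds, namely WT control, ACSS2-/- control, WT UUO and ACSS2-/- UUO. ACSS2-/- mice lack, in all cells, the acetyl-CoA synthetase ACSS2, through a knockout made with CRISPR/Cas9, and UUO, in which the ureter of the left kidney is tied off and cut, is a surgical model of kidney fibrosis. The methods name young adult C57BL/6J mice and state no strain for the ACSS2-/- mice. The labels give neither an age nor the time after surgery, nor whether the control kidneys came from sham-operated mice. Of 14 peak lists, 8 were of H3K9cr, with 2 libraries in each of the 4 kinds of kidney, and 6 were of H3K9ac, with 2 libraries in each UUO group and 1 (replicate 2) in each control group. Nothing in the labels says that replicates came from separate mice, and p-values measure the spread between these libraries only.

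Leukocytes use these genes in 3 ways. C1qa, C1qb and C1qc encode the chains of C1q, the recognition molecule that starts the classical complement pathway, and in tissues macrophages are their main source. Tyrobp (DAP12) and Fcer1g (the Fc receptor gamma chain) encode small membrane adaptors whose ITAM motifs pass signals of activating receptors to the kinase Syk. Ptprc encodes CD45, the receptor tyrosine phosphatase on the surface of leukocytes that sets the activity of Src-family kinases. Acylation of H3K9 marks the start sites of active genes, so that a peak at a start site in a kidney library can come from any cell type in the tissue. In whole kidney, more cells carrying the mark and more of the mark in each cell cannot be told apart.

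The peak lists gave positions only. A list held 15988 to 45014 peaks, covering 17.7 to 64.6 Mb, and the read depth behind it is unknown, so that a missing peak is a gene that did not pass the authors' threshold at that depth. H3K9ac lists of UUO kidneys were the shortest, with 15988, 18580, 17271 and 24571 peaks, against 36734, 30406, 35638 and 27530 in the H3K9cr lists of the same groups. In 4 of the 14 lists, all of UUO kidneys (both H3K9ac lists of ACSS2-/- UUO and, in H3K9cr, replicate 1 of either genotype), the peak names carried another number than the label. Chromosome Y held 14 and 13 peaks in ACSS2-/- UUO H3K9cr replicate 1 and ACSS2-/- UUO H3K9ac replicate 2, both with a 3 in their peak names, and 0 to 5 in each of the others. The counts of genes with peaks in all UUO and no control libraries are given with and without the 4 lists. Without them, ACSS2-/- UUO has no H3K9ac library and each genotype has 1 H3K9cr library after UUO.

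Of the 6 genes, 4 (C1qb, C1qc, Fcer1g and Ptprc) had a start site in the RefSeq promoter table of GRCm38.p6, and the 250 bases before it are shown. They are part of the promoter of 300 bases, which runs to 50 past the start, over which the presence of peaks was read base by base. For Ptprc the first of its 2 listed starts is shown. Capitals mark matches, on either strand, to GAGGAAG (the type bound by Spi1, also called PU.1), TGANTCA (AP-1), TGTGGT (Runx) or TATAAA (the TATA box), which do not overlap one another here.
C1qb promoter, chr4:136886201-136886450, minus strand: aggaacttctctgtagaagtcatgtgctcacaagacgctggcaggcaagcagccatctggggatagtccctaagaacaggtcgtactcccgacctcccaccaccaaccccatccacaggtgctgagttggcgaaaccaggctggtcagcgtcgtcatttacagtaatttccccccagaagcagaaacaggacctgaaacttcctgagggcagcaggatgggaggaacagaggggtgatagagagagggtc
C1qc promoter, chr4:136892915-136893164, minus strand: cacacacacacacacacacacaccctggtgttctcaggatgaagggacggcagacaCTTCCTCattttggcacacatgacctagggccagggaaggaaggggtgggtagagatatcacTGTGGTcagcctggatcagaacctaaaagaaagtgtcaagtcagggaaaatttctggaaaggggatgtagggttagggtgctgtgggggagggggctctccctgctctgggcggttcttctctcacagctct
Ptprc promoter, chr1:138175306-138175555, minus strand: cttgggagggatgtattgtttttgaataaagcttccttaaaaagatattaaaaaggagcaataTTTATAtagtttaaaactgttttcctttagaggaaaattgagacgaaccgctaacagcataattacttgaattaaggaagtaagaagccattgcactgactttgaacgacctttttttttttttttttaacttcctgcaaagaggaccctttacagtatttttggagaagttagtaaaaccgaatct
Fcer1g promoter, chr1:171234350-171234599, minus strand: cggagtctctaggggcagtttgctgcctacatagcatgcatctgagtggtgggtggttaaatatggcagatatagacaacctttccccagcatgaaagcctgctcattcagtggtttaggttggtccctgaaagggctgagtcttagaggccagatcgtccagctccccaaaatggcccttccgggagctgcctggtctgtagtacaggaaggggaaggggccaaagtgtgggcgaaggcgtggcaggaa

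Positions give the first base of a match, counted from the start site. The C1qc promoter held GAGGAAG on the reverse strand at position -194 from the start and TGTGGT at position -132. The Ptprc promoter held TATAAA on the reverse strand at position -187. No letters of these motifs were found in the shown part of the C1qb and Fcer1g promoters, and Fcer1g had TGTGGT at position 9, past its start. Among 32851 promoters of 300 bases, 13.6% held GAGGAAG, 7.81% TGANTCA, 16.8% TGTGGT and 13.6% TATAAA, so that each match is common. Over their 300 bases the promoters were poor to average in CG, with 6 CG dinucleotides in C1qb, 3 in C1qc, 4 in Ptprc and 7 in Fcer1g, against a median of 7 over all promoters.

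C1qb, C1qc and C1qa occupy 18719 bp of chromosome 4 (C1qb at chr4:136880126-136886200, C1qc at chr4:136889801-136892936, C1qa at chr4:136895916-136898844), and no other annotated gene lies within 20 kb of them. None of the 4 control H3K9cr libraries had a peak anywhere in the locus or in the 20 kb on either side. After UUO, peaks covered 15662 and 11456 bp in the WT libraries and 12481 and 5701 bp in the ACSS2-/- libraries, in 3, 6, 8 and 6 separate peaks. Every UUO library had H3K9cr at all 3 genes, and the lowest, ACSS2-/- UUO replicate 2, had less than the other 3.

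**Figure D1:**
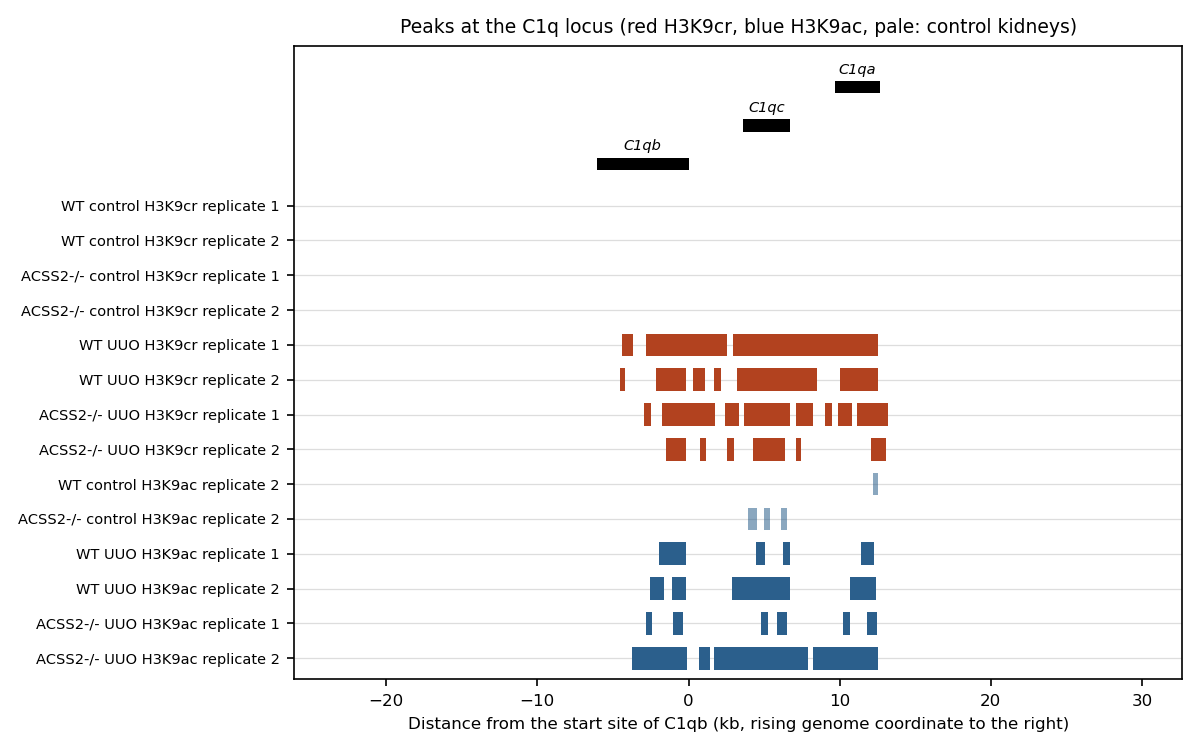
Peaks of the 14 libraries (rows) over the C1q locus, with distance from the start site of C1qb in kb on the horizontal axis, bars for peaks (red H3K9cr, blue H3K9ac, pale in control kidneys) and black bars for genes. The 4 H3K9cr control rows are empty, and H3K9cr of WT UUO replicate 1 runs through C1qc and C1qa in 1 peak of 9547 bp.

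The lengths of the peaks were mixed. Of the 23 H3K9cr peaks of the locus after UUO, 7 were longer than 90% of the peaks in their lists and 9 were shorter than the median of their lists. A single peak of 9547 bp (chr4:136889171-136898717), longer than 99.9% of the peaks in its list, joined C1qc and C1qa in WT UUO H3K9cr replicate 1. The longest peak of the locus was 5281 bp in WT UUO replicate 2 and 3524 and 2161 bp in the ACSS2-/- libraries. As a share of the 18719 bp from the lower end of C1qb to the higher end of C1qa, H3K9cr covered 83.7% and 61.2% in WT UUO and 63.7% and 28.2% in ACSS2-/- UUO. The C1qc gene was covered over 100%, 100%, 96.2% and 68.9% of its length. C1qb, the longest of the 3, was covered over 58.6%, 39.4%, 36.8% and 22.1%. The 1.5 kb of C1qb farthest from its start was free of peaks in the 4 libraries.

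A start window of 3 kb either side of the start site was used for each gene to set the libraries side by side. For C1qa and Tyrobp, whose strand was not in the tables used, the windows of both gene ends were joined. H3K9cr peaks covered 5802 and 4244 bp of the C1qa window in WT UUO and 4588 and 1402 bp in ACSS2-/- UUO. For C1qb they covered 5391 and 3333 bp in WT UUO and 4547 and 2138 bp in ACSS2-/- UUO. For C1qc they covered 6001 bp, the whole window, and 4749 bp in WT UUO, and 4555 and 2533 bp in ACSS2-/- UUO. The values of the 3 genes rose and fell together over the libraries, partly because the C1qa and C1qc windows overlap and 1 peak can cover both.

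H3K9ac was less bare in the control kidneys. The WT control library had 1 peak of 321 bp near the higher end of C1qa, and the ACSS2-/- control library had 3 peaks of 1420 bp in all at C1qc. After UUO, H3K9ac covered 3769 and 7453 bp of the locus in WT and 3408 and 14816 bp in ACSS2-/- kidneys, so that all 4 UUO libraries lay above both control libraries. In the start windows H3K9ac covered 898 and 1766 bp of C1qa in WT UUO and 1168 and 5483 bp in ACSS2-/- UUO. It covered 1771, 2006, 1036 and 4887 bp of C1qb in the same order, with 0 in both controls. It covered 1107, 2946, 1204 and 5640 bp of C1qc, against 0 in the WT and 1420 bp in the ACSS2-/- control library. ACSS2-/- UUO replicate 2 stood above the other 3 libraries at each gene, and it was also the longest H3K9ac list of the UUO kidneys, with 30.9 Mb covered against 17.7 to 21.2 Mb.

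Of the H3K9ac cover within 3 kb of the start, a mean of 88.3% lay on the gene side for C1qb (range 59.5% to 100%) and 88.3% for C1qc (53.2% to 100%) over the 4 UUO libraries, and the median of this mean over 8559 genes was 75.3%. For H3K9cr the mean was 56.2% at C1qb (49.2% to 62.9%) and 65.8% at C1qc (50.01% to 85.3%), and the median over 9518 genes 64.2%. The ranges of the marks overlapped at both genes, and the higher share in H3K9ac was also that of all genes. Read over the 300 bases from 250 before to 50 after the start, the C1qb promoter was covered in full by H3K9cr in WT UUO replicate 1 and ACSS2-/- UUO replicate 1 and not at all in the other libraries, H3K9ac included, since the peaks of the other UUO libraries left the bases around the start free. The C1qc promoter was covered over 300, 300, 18 and 0 bases by H3K9cr and over 58, 17, 0 and 300 bases by H3K9ac in the UUO libraries. No control library covered any base of either promoter.

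Tyrobp lies at chr7:30413782-30417582. Its lower-coordinate end, within 1 kb, held an H3K9cr peak in 4 of 4 UUO libraries and an H3K9ac peak in 4 of 4, and no peak in any control library of either mark. The H3K9cr peaks there were 2692 and 1765 bp long in WT UUO and 1648 and 921 bp in ACSS2-/- UUO, and the H3K9ac peaks 853 and 583 bp in WT UUO and 1256 and 1237 bp in ACSS2-/- UUO. The lncRNA gene Gm32029 ends 62 bp below Tyrobp, and at that end 7 of the 8 UUO peaks lay over both genes, the H3K9ac peak of WT UUO replicate 2 over Tyrobp only. Beyond the other end, 129 bp away, lies Hcst, which encodes DAP10, an adaptor that works beside DAP12.

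**Figure D2:**
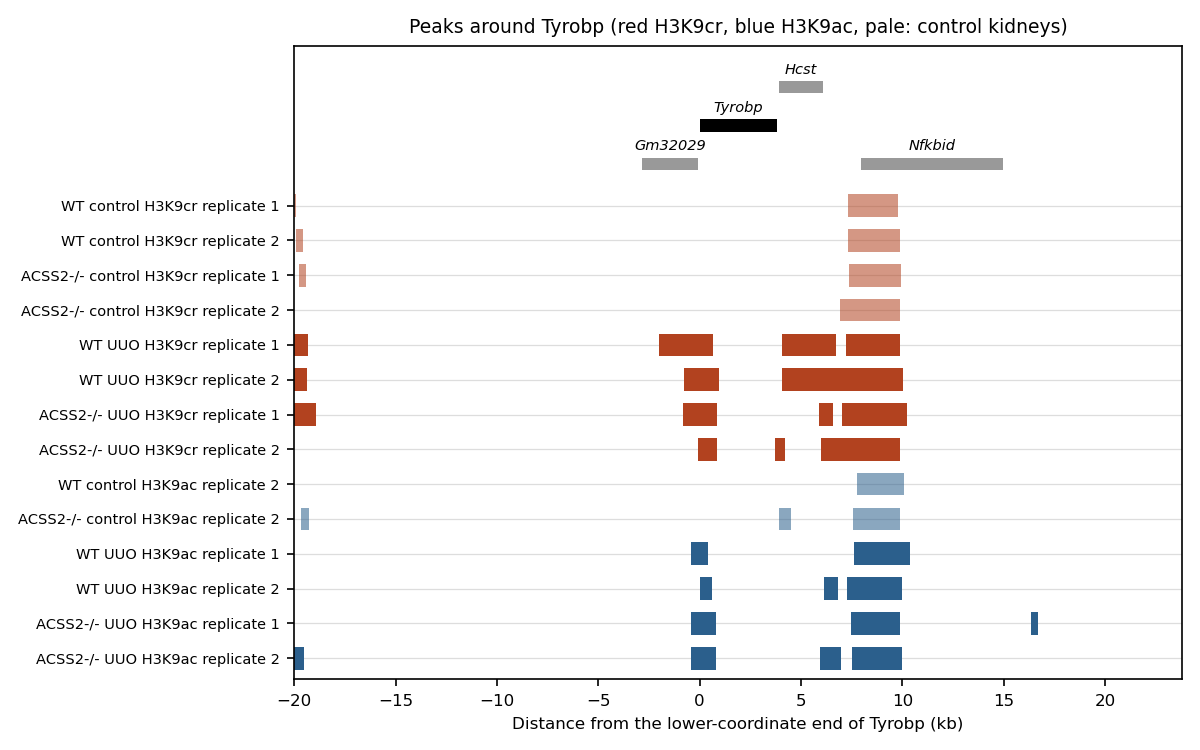
Peaks of the 14 libraries (rows) around Tyrobp, with distance from its lower-coordinate end in kb on the horizontal axis and gene extents above (black Tyrobp, grey the neighbours named in the text). A peak lies at 0 kb in all 8 UUO rows and in no control row, while the peak at the start of Nfkbid is present in all 14 rows.

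Hcst followed Tyrobp in H3K9cr. Within 1 kb of its start, 756 to 2001 bp were covered in the 4 UUO libraries, and 0 to 153 bp in the controls, where 1 of 4 libraries had a peak. For H3K9ac, Hcst had cover in 2 of 4 UUO libraries and 0 of 2 control libraries. The next gene, Nfkbid, which encodes a nuclear IkB protein, had H3K9cr and H3K9ac at its start in all 14 libraries, with 1564 to 2001 bp of H3K9cr in control and 1743 to 2001 bp in UUO kidneys. Counted over both ends, the Tyrobp start window had 0 bp of H3K9cr in the 4 control libraries, 5360 and 4491 bp in WT UUO, and 2368 and 2264 bp in ACSS2-/- UUO. H3K9ac covered 0 bp in the WT control, 587 bp in the ACSS2-/- control (a peak at the Hcst side), 853 and 1238 bp in WT UUO and 1256 and 2113 bp in ACSS2-/- UUO. Within the gene itself, 17.7% to 25.7% of the length carried H3K9cr after UUO.

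Ptprc, at chr1:138062859-138175756, is the longest of the 6 genes, and its peaks covered a small part of it. H3K9cr lay at the start site in 4 of 4 UUO libraries, with 2263 and 1744 bp covered in WT UUO and 1919 and 938 bp in ACSS2-/- UUO, and in no control library. H3K9ac covered 0 and 2178 bp in WT UUO and 1815 and 2685 bp in ACSS2-/- UUO, and 0 bp in both controls. WT UUO H3K9ac replicate 1, the list with the fewest peaks (15988), was the only UUO library of either mark without a peak at the start.

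**Figure D3:**
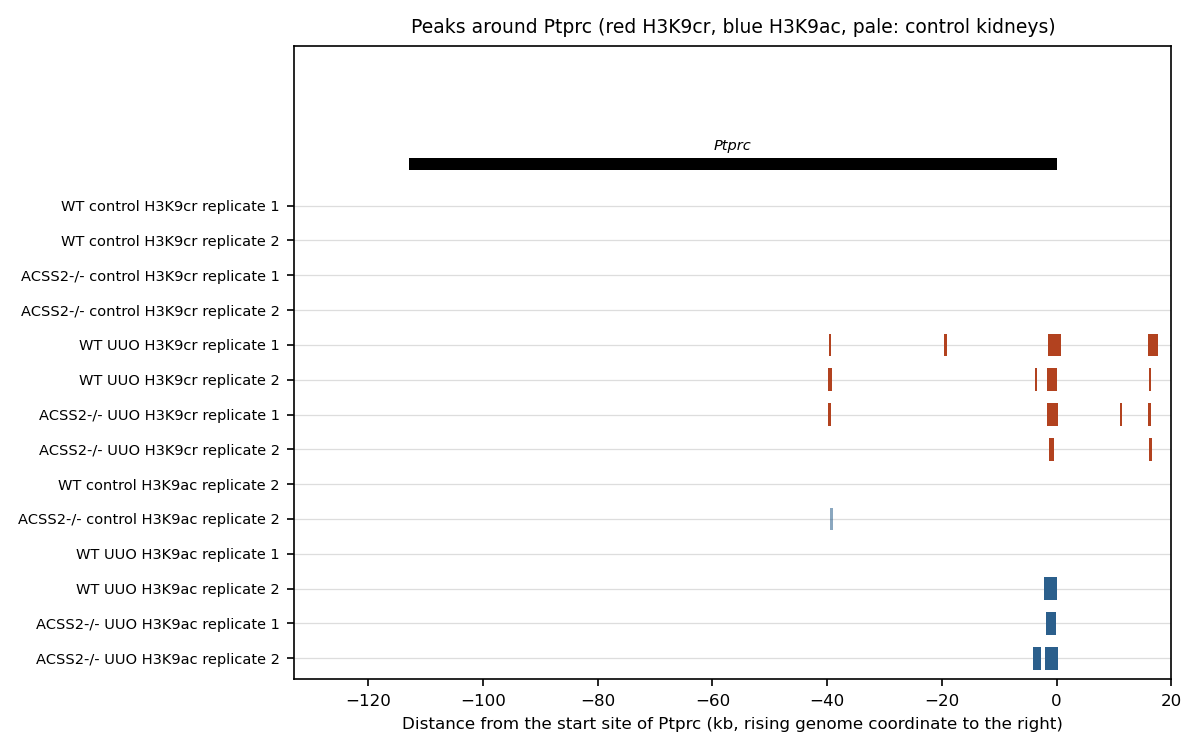
Peaks of the 14 libraries (rows) around Ptprc, with distance from its start site in kb on the horizontal axis and the extent of the gene above. Peaks gather at the start site in 7 of the 8 UUO rows, and a second H3K9cr site 15.9 kb before the start is present in the 4 UUO rows of that mark only.

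Away from the start, H3K9cr returned at the same places in several UUO libraries. A site at chr1:138191699-138193485, 15.9 kb before the start, had 336 to 1787 bp of H3K9cr in 4 of 4 UUO libraries and no peak of H3K9ac in any library. A site inside the gene at chr1:138135915-138136836 had 460 to 599 bp of H3K9cr in 3 of 4 UUO libraries (absent in ACSS2-/- UUO replicate 2), and it was also the place of a 640 bp H3K9ac peak in the ACSS2-/- control library. Sites at chr1:138156137-138156663 and chr1:138186882-138187193 were seen in 1 library each. Over the gene and 20 kb on either side, H3K9cr covered 5037 and 3137 bp in WT UUO, 3159 and 1463 bp in ACSS2-/- UUO and 0 bp in each control. The first Ptprc promoter, printed above in part, was covered by H3K9cr over 300, 300, 300 and 21 of 300 bases and by H3K9ac over 0, 300, 300 and 300 bases after UUO.

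Fcer1g, at chr1:171229572-171234349, did not follow the other 5 genes in start-window cover. Its start window carried 478 and 0 bp of H3K9cr in WT control and 2320 and 627 bp in ACSS2-/- control, against 1529 and 1177 bp in WT UUO and 2133 and 0 bp in ACSS2-/- UUO. The control and UUO libraries overlapped, and the highest value was that of a control, ACSS2-/- control replicate 1, whose list covered the most (64.6 Mb). The 0 bp after UUO came from ACSS2-/- UUO replicate 2, whose H3K9cr list covered the least (29.4 Mb). In WT kidneys alone both UUO libraries lay above both controls. The nearest H3K9cr peak lay 0 and 95 bp from the start in WT UUO and 131 bp in ACSS2-/- UUO replicate 1. It lay 1356 bp away in WT control replicate 1, and WT control replicate 2 had none in the window. In the ACSS2-/- controls it lay 758 and 124 bp away, the latter wholly before the start. For H3K9ac the controls had 827 bp (WT) and 1673 bp (ACSS2-/-), and the UUO libraries 0 and 525 bp in WT and 720 and 2183 bp in ACSS2-/- kidneys, again with overlap.

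**Figure D4:**
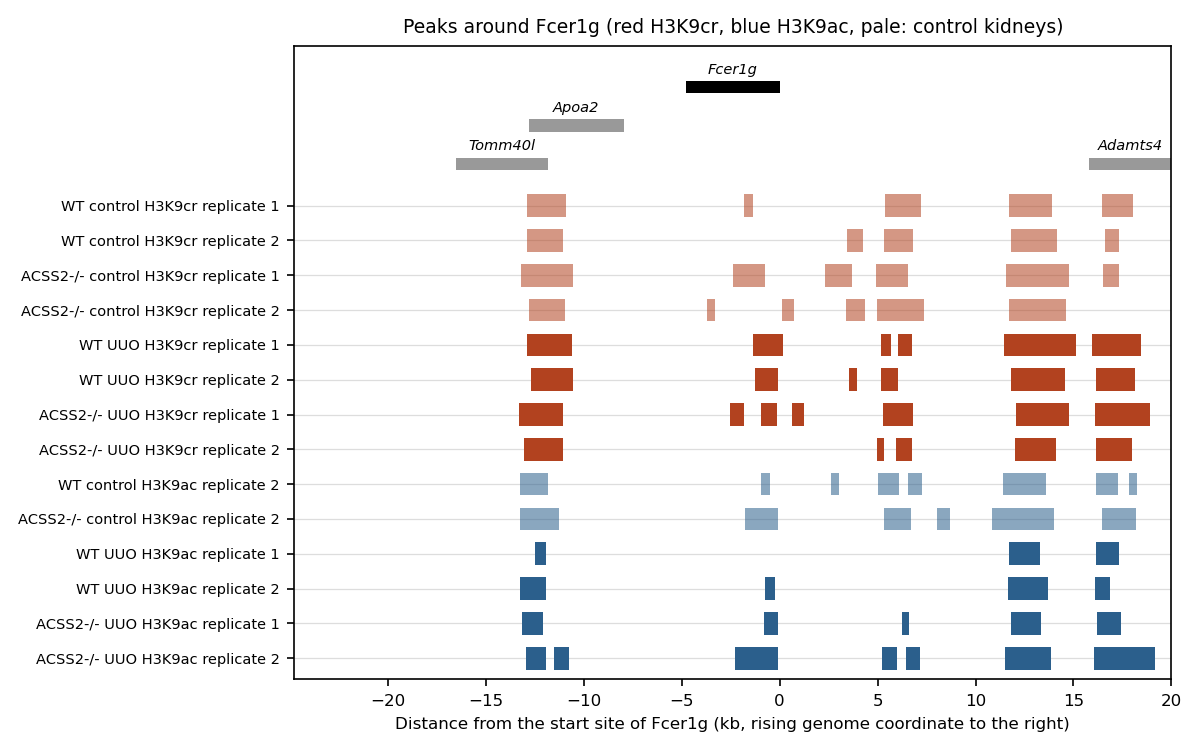
Peaks of the 14 libraries (rows) around Fcer1g, with distance from its start site in kb on the horizontal axis and the extents of Fcer1g and of the neighbours named in the text above. Peaks at Apoa2 and Tomm40l recur in control and UUO rows alike, and peaks near the start of Fcer1g occur in both.

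The surroundings of Fcer1g held peaks in every library. Apoa2, which encodes an apolipoprotein, had 1001 to 1439 bp of H3K9cr within 1 kb of its start in control and 886 to 1546 bp in UUO kidneys. Tomm40l and Adamts4, which also reach within 20 kb of Fcer1g, had H3K9cr within 1 kb of their ends in all 8 libraries of that mark. Within the 20 kb window, H3K9cr covered 7189 to 11377 bp in control and 7192 to 11397 bp in UUO libraries. The Fcer1g promoter, printed above in part, was covered in 2 of 14 libraries. Of its 300 bases, 127 were covered in ACSS2-/- control H3K9cr replicate 2 and 237 in WT UUO H3K9cr replicate 1.

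**Figure D5:**
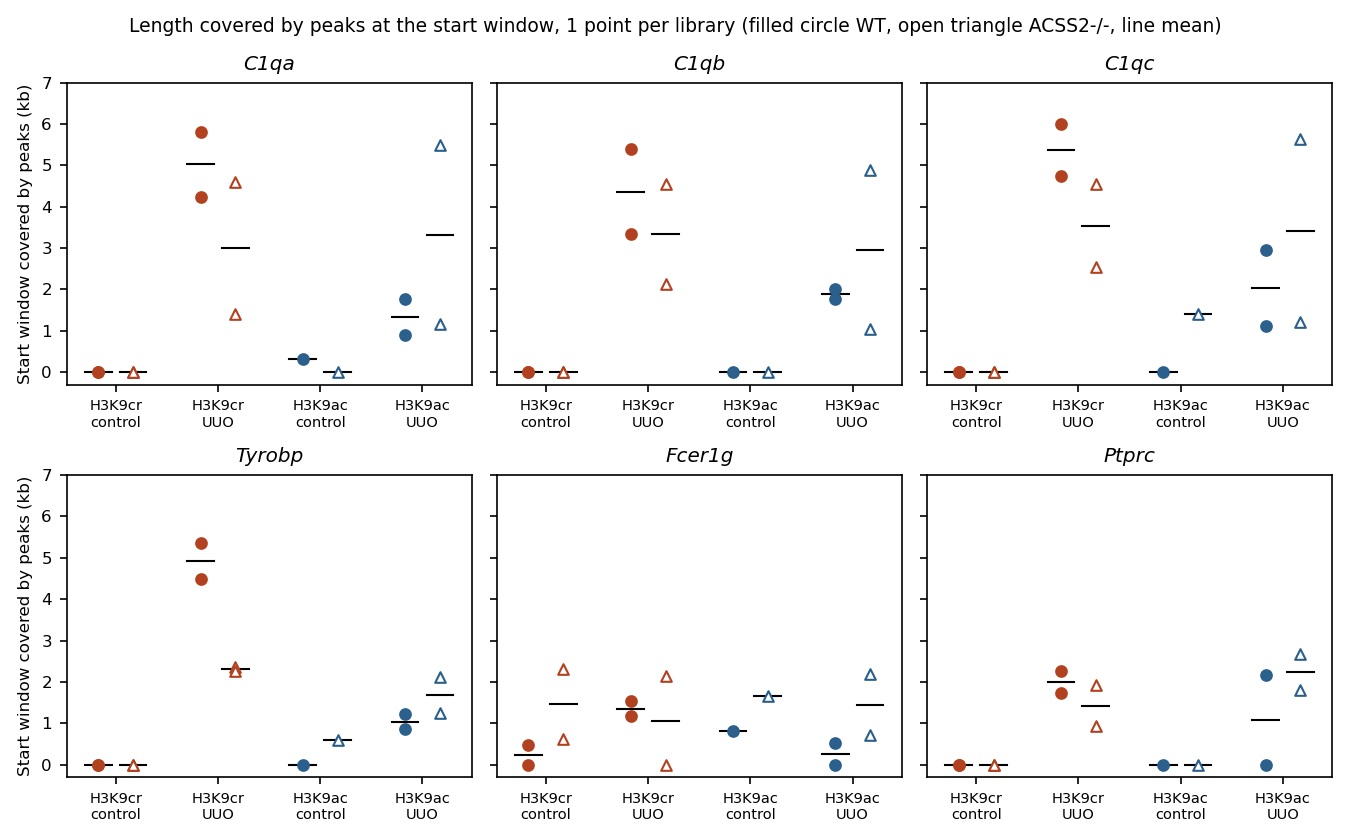
Start-window length covered by peaks (kb, vertical axis) for each gene by mark and operation, 1 point per library (filled circles WT, open triangles ACSS2-/-, black lines group means of 1 or 2 libraries). H3K9cr control points lie at 0 for 5 of the 6 genes, while control and UUO points of Fcer1g overlap.

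Set side by side, 5 of the 6 genes (C1qa, C1qb, C1qc, Tyrobp and Ptprc) had an H3K9cr peak in the start window in all 4 UUO and in no control library, as shown in the plot of start-window cover. Of all 21887 protein-coding genes 94 did so, or 0.429%, and since the genes were chosen by this contrast nothing is read from the difference. The reverse pattern, with peaks in the 4 control libraries and no UUO library, was seen in 57 genes (0.26%) and in 0 of the 6. For H3K9ac, C1qb alone had peaks in all 4 UUO libraries and neither control, as did 22 genes, or 0.101%. Without the 4 lists whose peak names carry another number, the counts were again 5 and 1. The H3K9ac count depended on single libraries. It was 3 (C1qb, C1qc and Tyrobp) without the ACSS2-/- control library, 2 (C1qa and C1qb) without the WT control library and 2 (C1qb and Ptprc) without WT UUO replicate 1.

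As a share of the start window, H3K9cr over the 4 UUO libraries was 74.3% ± 23.9 at C1qc, 64.2% ± 23.7 at C1qb, 44.9% ± 20.9 at C1qa, 36.9% ± 15.8 at Tyrobp, 28.6% ± 9.36 at Ptprc and 20.2% ± 15.0 at Fcer1g (SD, n = 4). Each pair of neighbours in this order differed by less than 1 SD of either gene, and the joined windows of C1qa and Tyrobp are longer (8929 and 9801 bp against 6001 bp). Each SD in this paragraph pools WT and ACSS2-/- libraries, so it holds any genotype difference as well. For H3K9ac the order was C1qc (45.4% ± 35.3), C1qb (40.4% ± 28.2), Ptprc (27.8% ± 19.5), C1qa (26.1% ± 23.9), Fcer1g (14.3% ± 15.6) and Tyrobp (13.9% ± 5.43; SD, n = 4), again with neighbours within the spread.

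The covered lengths of the C1q genes moved together over the 14 libraries, with Pearson's r of 0.967 to 0.98 between pairs. Tyrobp had r of 0.855 to 0.89 and Ptprc r of 0.853 to 0.88 with the C1q genes, and r was 0.731 between Tyrobp and Ptprc. Fcer1g had r of 0.264 to 0.49 with the others. These values describe 14 libraries of 2 marks that differ in how many peaks passed, and 6 of them are controls in which most values are 0.

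In WT UUO kidneys both H3K9cr libraries had more cover than both H3K9ac libraries at 5 of the 6 genes, Ptprc being the exception. The same was seen in 51.3% of the 13581 genes with a peak in any of these 4 libraries, and the opposite order, seen in none of the 6, in 5.29%. In ACSS2-/- UUO kidneys H3K9cr lay above H3K9ac at Tyrobp only, where 2368 and 2264 bp stood against 1256 and 2113 bp. That order was found in 16.2% of 13644 genes and the opposite in 17.7%, with 0 of the 6 genes in the latter. At Tyrobp it depended on the joined window. At the lower end alone, without the window on the Hcst side, the marks overlapped. There H3K9cr had 1648 and 921 bp and H3K9ac 1256 and 1237 bp in ACSS2-/- UUO. The H3K9cr lists of UUO kidneys held more peaks than the H3K9ac lists, though ACSS2-/- UUO H3K9cr replicate 2 covered 29.4 Mb and H3K9ac replicate 2 covered 30.9 Mb, and the part of list length in these orders was not tested.

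Loss of ACSS2 was compared within UUO, a contrast that did not choose the genes. Genotypes were exchanged within each mark over the 8 UUO libraries in a two-sided exact permutation test of the start-window cover, averaged over the marks, which has 36 arrangements and cannot give a p below 0.0556. Tyrobp had a difference (ACSS2-/- minus WT) of -985 bp (exact permutation p = 0.333), Fcer1g of 451 bp (exact permutation p = 0.5), Ptprc of 293 bp (exact permutation p = 0.778) and C1qc of -218 bp (exact permutation p = 0.889). At the lower end of Tyrobp alone, without the window on the Hcst side, the difference was -207.75 bp (exact permutation p = 0.722), and with 1 kb either side of both ends it was -187.25 bp (exact permutation p = 0.5). C1qa and C1qb had differences of -17.2 and 26.8 bp (exact permutation p = 1 for both). None of the 6 differences exceeded what the spread between libraries gives. The methods state that both marks were measured on the same samples, so that the 8 libraries are not 8 separate kidneys. The labels do not tie the libraries of the marks to each other, and with 2 kidneys against 2 no p below 0.333 could be reached. In the 1 H3K9cr library per genotype left without the lists whose peak names carry another number (replicate 2 of each), the ACSS2-/- value was the lower at 6 of 6 genes, as it was at 64.3% of 13230 genes.

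The averages near 0 joined opposite directions in the marks. The mean H3K9cr cover was lower and the mean H3K9ac cover higher in ACSS2-/- than in WT UUO at each of the 6 genes. At Tyrobp the means of H3K9cr were 4925.5 bp in WT and 2316 bp in ACSS2-/- UUO, and of H3K9ac 1045.5 and 1684.5 bp. With 2 libraries against 2, no single mark can give an exact permutation p below 0.333, and that value was reached at Tyrobp for both marks, at C1qc for H3K9cr and at Fcer1g for H3K9ac. At C1qa the means of H3K9cr were 5023 bp in WT and 2995 bp in ACSS2-/- UUO, and of H3K9ac 1332 and 3325.5 bp. The H3K9cr means were 4362 and 3342.5 bp at C1qb, 5375 and 3544 bp at C1qc, 2003.5 and 1428.5 bp at Ptprc and 1353 and 1066.5 bp at Fcer1g.

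The lists as a whole moved the same way. H3K9cr lists covered 44.6 and 35.0 Mb in WT UUO and 39.7 and 29.4 Mb in ACSS2-/- UUO, and H3K9ac lists 17.7 and 21.2 Mb and 19.3 and 30.9 Mb. Both WT H3K9cr libraries lay above both ACSS2-/- libraries at 2 of the 6 genes (C1qc and Tyrobp), against 25.5% of 13847 genes with a peak in any of the 4, and the opposite order, held by 0 of the 6, was found in 8.2%. Both ACSS2-/- H3K9ac libraries lay above both WT libraries at 2 of the 6 (Tyrobp and Fcer1g), against 29.7% of 13089 genes, and the opposite order, again held by 0 of the 6, was found in 2.96%. These shares are near the background or rest on 2 genes. Per Mb covered in the list, the averaged difference was -21.2 bp at Tyrobp, 17.3 bp at Fcer1g, 14.5 bp at Ptprc, -6.4 bp at C1qc, 4.03 bp at C1qa and -2.85 bp at C1qb, with exact permutation p of 0.333 to 1.

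The ACSS2-/- UUO libraries fell apart by the number in their peak names. In H3K9cr, the library with a 3 (replicate 1) had more cover than the library with a 2 (replicate 2) at 6 of 6 genes, for instance 4588 against 1402 bp at C1qa and 2133 against 0 bp at Fcer1g. In H3K9ac, the library with a 3 (replicate 2) was also above the library with a 2 (replicate 1) at 6 of 6 genes, with 5483 against 1168 bp at C1qa and 2183 against 720 bp at Fcer1g. Over all genes with a peak in either library, 72.4% (H3K9cr) and 89.3% (H3K9ac) were higher in the library with a 3. Peaks on chromosome Y moved with this number, at 14 and 13 in the libraries with a 3 and 0 in those with a 2, and whether a number stands for a mouse is not stated.

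Markers of leukocytes and of kidney cell types were read in lists that leave out the 6 genes. Of 35 leukocyte genes, 8 to 14 had an H3K9cr peak in the start window in a control library and 17 to 30 in a UUO library, with a summed cover of 10.5 to 21.8 kb and 24.0 to 58.9 kb. Of all 21887 genes, 12507 to 13146 had one in a control library and 12493 to 13166 in a UUO library. Cd48, a cell surface protein of leukocytes, Rac2, a GTPase of blood cells, and Was, an actin regulator of blood cells, had peaks in all 4 UUO and no control library. That makes 3 of 35, against 0.429% of all genes. Rac2 had 1133 to 2361 bp in the UUO libraries, Cd48 699 to 1562 bp and Was 402 to 1031 bp. Cd68, a lysosomal protein of macrophages, had H3K9cr in all 8 libraries, with 514 to 1077 bp in control and 316 to 2219 bp in UUO kidneys. In 9 of the 35 all 4 UUO libraries lay above all 4 controls, as they did in 327 of all genes (1.49%), and 5 of the 35 had no H3K9cr peak in any library. In H3K9ac, Laptm5, Plek and Arhgap30, 3 of the 35, had peaks in all 4 UUO libraries and neither control, against 0.101% of all genes. The 6 genes were picked because leukocyte promoters appeared with UUO, and this list was chosen with earlier results of these data known. These shares therefore describe the same contrast, and nothing more is read from them. The part of the number of leukocytes in the values of the 6 genes was not tested.

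Among the UUO libraries, the highest and the lowest H3K9cr library were the same for the leukocyte list and for the 6 genes. They were also the UUO H3K9cr lists with the most and the least cover, 44.6 and 29.4 Mb. WT UUO H3K9cr replicate 1 had peaks at 30 of 35 genes and 26.3 kb over the 6 genes together, WT UUO replicate 2 had 27 and 19.7 kb, ACSS2-/- UUO replicate 1 had 25 and 20.1 kb, and ACSS2-/- UUO replicate 2 had 17 and 9.28 kb (the C1qa and C1qc windows overlap, so shared bases count for each). In H3K9ac, ACSS2-/- UUO replicate 2 was highest with 28 genes and 23.0 kb and the other 3 had 16 to 24 genes and 4.63 to 10.7 kb. Its list also covered the most of the UUO H3K9ac lists, 30.9 Mb. The proximal tubule list went in the opposite direction. Of 12 proximal tubule genes, 10 or 11 had an H3K9cr peak in a control library and 3 to 8 in a UUO library, with 27.6 to 40.2 kb and 4.76 to 10.5 kb in sum. Of all 21887 genes, 12507 to 13146 and 12493 to 13166 had one. In 8 of the 12 all 4 controls lay above all 4 UUO libraries, as in 8.03% of all genes, and Slc5a12, a lactate transporter, was the 1 that went from 4 of 4 control to 0 of 4 UUO libraries. The median difference (UUO minus control) was 745 bp for the leukocyte list and -1670.25 bp for the proximal tubule list, and it was 0 bp over all genes.

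The other kidney lists held no gene of this kind. None of 8 distal nephron, 8 endothelial, 8 stroma and 6 podocyte genes had H3K9cr in all UUO and no control libraries, near the 0.429% of all genes. Their median differences were -715.5, -508, 653 and 0 bp. Umod, the main urinary protein of the thick ascending limb, had 3877 to 4704 bp of H3K9cr in control and 2602 to 4113 bp in UUO kidneys, and Pecam1, an endothelial adhesion protein, 743 to 1635 and 632 to 1422 bp. Pdgfrb, a growth factor receptor of stromal cells, had H3K9cr in 3 of 4 libraries of either kind, and Nphs1, the slit diaphragm protein nephrin, in no library of either mark.

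Genes that act with the 6 were taken from lists chosen by their known roles, with earlier results of these data known. Their shares are descriptions without a test. Downstream of C1q, 0 of 12 genes of the classical pathway and of C1q binding passed from no control to all UUO libraries in H3K9cr, near the 0.429% of all genes. Peaks in all 4 UUO libraries were held by 8 of the 12, and by 11925 of all 21887 genes. C1ra, the protease that C1q activates through its complex, had 537 to 1227 bp in control and 512 to 1272 bp in UUO kidneys. The median difference of this list was 78.8 bp.

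Receptors that need the adaptors were mostly without peaks. Of 11 receptors that couple to Tyrobp, 0 had H3K9cr or H3K9ac in any control library, 6 had no H3K9cr peak in any library and 0 to 3 had one in each UUO library. Of all 21887 genes, 13567 had H3K9cr in at least 1 control library and 12493 to 13166 in each UUO library. H3K9cr after UUO covered 533, 372, 807 and 0 bp at Cd300lb and 362, 772, 548 and 0 bp at Cd300ld. Trem1, an activating receptor of neutrophils and monocytes, had none in any library of either mark. Of 12 receptors that couple to Fcer1g, 9 had no H3K9cr peak in any library, and of all 21887 genes 7583 had none. Fcgr1, the high-affinity IgG receptor, had 315 to 2489 bp in 4 of 4 UUO and 0 of 4 control libraries, a pattern of 0.429% of all genes. Fcgr3, another IgG receptor, had no start-window peak in any library. Fcgr4 had 2270 and 2362 bp of H3K9cr in replicate 1 of WT and of ACSS2-/- UUO, and 0 bp in the other libraries of that mark. Oscar had a peak in every library and went the other way, with 1238 to 1937 bp of H3K9cr in control and 828 to 1080 bp in UUO kidneys. All controls above all UUO libraries was the order in 8.03% of all genes. A gene without a peak did not pass the threshold, which is not a measure of absent mark.

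Kinases and adaptors that receive the signal carried H3K9cr in most libraries. Of 13 such genes, 12 had a peak in all 4 UUO libraries and 11 in at least 1 control library. Over all 21887 genes these counts were 11925 and 13567. In 5 of the 13 all UUO libraries lay above all controls, against 1.49% of all genes. Zap70 (the Syk-family kinase of T cells, 329 to 1773 bp) and Lcp2 (SLP-76, a scaffold below these kinases, 602 to 2352 bp) had peaks in all UUO and no control libraries. That makes 2 of 13, against 0.429% of all genes. Syk itself had 664 to 1171 bp in the 4 UUO libraries and 0 to 497 bp in the controls, with a peak in 1 of 4. Lcp2 was also the 1 gene of this list with H3K9ac in all 4 UUO libraries (848 to 2387 bp) and neither control, against 0.101% of all genes. Of 12 substrates and partners of CD45, 0 had H3K9cr in all UUO and no control libraries. With a share of 0.429% over all genes, nothing is read from that count. Lck, a Src-family kinase of T cells that CD45 activates, had 0 to 1188 bp in control and 901 to 2373 bp in UUO kidneys. The median difference was 834 bp for kinases and adaptors and 515 bp for CD45 partners.

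The genes with the pattern most like the 6 were found by Pearson's r, over the 14 libraries, between a gene's start-window cover and the mean profile of the 6 genes, each scaled to its own mean. Among 14624 protein-coding genes, the first 10 were Ms4a6c (r = 0.955), Il10ra (0.955), Cxcl16 (0.951), Fcgr1 (0.95), Lrrc25 (0.946), Ncf4 (0.944), Tm6sf1 (0.943), Gm1966 (0.934), Gpr65 (0.932) and Ms4a6b (0.932). Il10ra, a chain of the interleukin-10 receptor, had 6705, 4698, 5668 and 1921 bp of H3K9cr in the UUO libraries and 0 in the 4 controls. Cxcl16, a chemokine, was marked in all 14 libraries, with 2569 to 2981 bp of H3K9cr in control and 4737 to 7948 bp in UUO kidneys. Ncf4, a subunit of the phagocyte NADPH oxidase, had 1153 to 2126 bp in UUO and 0 in control kidneys. With Spearman's rho in place of r, 3 of the 10 (Il10ra, Cxcl16 and Lrrc25) stayed among the first 10. Since the 6 genes were chosen for their contrast with control, a high r here describes the same contrast, over libraries that share kidneys and marks.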

How the data were processed

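ChIP-seq peak lists of 14 mouse kidney libraries were used, 8 of H3K9cr and 6 of H3K9ac. According to the methods, the authors cleaned the reads, aligned them with Bowtie2, dropped duplicates as well as organelle and poorly mapped reads, called peaks with MACS2 at a q-value threshold and annotated them with ChIPseeker, with mm10 named in the submitters' processing notes and no versions given. The deposited files hold peak start and end positions, 1 list per library, with no score, count or strand, so the DESeq2 test of the methods could not be made and read depth is unknown. The catalogue number of the antibody differs from sample to sample in the labels. Groups came from the sample titles.

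Genes came from RefSeq on GRCm38.p6, whose table of 21887 protein-coding genes gave a strand through the promoter table for 17492. For the other 4395, C1qa and Tyrobp among them, both ends were used. The start window was 3 kb either side, overlap at least 1 bp, and the near window 20 kb beyond the gene ends. Genotypes in UUO were compared by exact permutation within marks. The genes, marker lists, pathway lists and motifs were chosen with earlier results of these data known. Named genes were the 6, neighbours with a peak at their own ends, for each list up to 4 genes (the first that gained a peak and the first that did not), and the 10 most alike. Slc5a12, Oscar, Cd300lb, Cd300ld, Fcgr4, Laptm5, Plek, Arhgap30 and Lcp2 in H3K9ac were named after their values were seen. Alternatives were other windows, overlaps, peak sets and libraries, scaling by covered length, and a replicate block; the use of 1 end of C1qa and Tyrobp was chosen after seeing the data. Overlaps were tested on simulated data. Scripts ran on pandas 2.3.3 and numpy 2.4.6 with SciPy 1.17.1 under Python 3.11.15, with figures by matplotlib 3.10.9. Input and RNA-seq libraries are not analysed here, and 1 neighbouring gene is not reported here.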

Additional observations from a re-analysis of the deposited data

Results flagged for a closer look

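At Tyrobp the difference between the genotypes in UUO ran in opposite directions in the marks. The group means did so at C1qa, C1qb, C1qc, Fcer1g and Ptprc too, and the lists as a whole moved the same way. The start-window difference (ACSS2-/- minus WT) at Tyrobp was -2609.5 bp in H3K9cr, where both ACSS2-/- libraries lay below both WT libraries. It was 639 bp in H3K9ac, where both lay above. Among genes with a peak in any of the libraries compared, 25.5% had this order in H3K9cr and 29.7% in H3K9ac. The exact permutation p at Tyrobp was 0.333 for each mark, the smallest that a single mark can give. At the lower end of Tyrobp alone, without the window on the Hcst side, the differences were -944 bp and 528.5 bp, with the same order of libraries. The difference between the marks was not tested.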

How the results depend on the processing

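The number of the 6 genes with H3K9cr in all UUO and no control libraries was 4 or 5 under 17 alternatives, and was 4 with the whole gene and 20 kb either side, where the Nfkbid peak lies in the Tyrobp window. For H3K9ac it was 1, and became 0 with that window, 4 with an equal number (15988) of the longest peaks per list, 0 with the longest 50% of peaks, 2 with 1 end of C1qa and Tyrobp, 3 with WT libraries only and 1 to 3 on leaving out each library. An H3K9cr UUO library had a mean of 18.75 distinct peaks within 20 kb of the 6 genes, 14.75 within 10 kb and 28.25 within 50 kb. Spearman's rho shared 3 of the 10 most alike genes.

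Of 98 alternatives for the genotype difference in UUO, 31 changed its sign, 10 at C1qb, 8 at C1qa, 5 at C1qc, 4 at Ptprc, 3 at Fcer1g and 1 at Tyrobp (H3K9ac alone), with exact permutation p from 0.0556, the smallest possible, to 1. Tyrobp had -187.25 bp with a 1 kb window and -207.75 bp with 1 end. With a 1 kb window it was 527.75 bp at C1qa, -86 bp at C1qb and -30.25 bp at Ptprc. With the gene and 20 kb it was -483.5 bp at C1qb and -16.5 bp at Ptprc. Per Mb covered it was 4.03 bp at C1qa and -2.85 at C1qb. With an equal number of the longest peaks it was -100 bp at C1qb and -82 bp at Fcer1g, with the longest 50% -386.75 bp at C1qb, and with 1 end 22 bp at C1qa. H3K9ac alone gave 1993.5 bp at C1qa, 1395.5 bp at C1qc and 639 bp at Tyrobp, and H3K9cr alone -1019.5 bp at C1qb, -286.5 bp at Fcer1g and -575 bp at Ptprc. Leaving out each library gave -1096 to 1061.5 bp at C1qa, -936 to 989.5 bp at C1qb, -1326.75 to 891.25 bp at C1qc, -82 to 984.5 bp at Fcer1g, -251.5 to 837.5 bp at Ptprc and -1202.5 to -768 bp at Tyrobp. Beyond the opposite directions of the marks, the cause was not tested.

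A replicate block (same-numbered libraries paired) left each difference as it was, -985.25 bp at Tyrobp with an exact permutation p of 0.5. Deviations of same-numbered libraries had a correlation of 0.128 (H3K9cr) and 0.119 (H3K9ac) over genes, and the numbers are not stated to pair mice. Unknown read depth, 2 libraries per group, 1 control library per H3K9ac group and no peak score limit what these lists can show.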
